A study of Homo sapiens with 6 samples.

Results

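Long intergenic noncoding RNAs carry the symbol LINC followed by digits when they lie outside known genes and have no better name. The 147 genes described here were chosen by 3 criteria: such a symbol, annotation as an autosomal lncRNA gene, and a mean of 50 or more counts over the 6 libraries after the counts of a gene's transcripts were added up. They were 147 of 61015 genes with a summed row and 147 of 2202 autosomal LINC genes on file, of which 1808 had at least 1 count. The other 2055 fell below the minimum, and 4 LINC genes on the X chromosome were left out by the criteria. The values that chose the members were therefore their mean counts, which ran from 50.2 to 13052 with a median of 85.5. Just inside the minimum were LINC01422 with a mean of 50.2 counts, LINC00852 with 50.5 and LINC01965 with 50.7, and just outside were LINC00899, LINC01270 and LINC02240 with 49.8 each.

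According to the study, the libraries came from paclitaxel (PTX)-resistant MDA-MB-231 cells, a human triple-negative breast cancer line with mesenchymal features. Every library would thus share the line and its drug resistance, although the titles name both for the BCSC libraries only. The BCSC group (3 libraries) held sorted ALDH+ cells, termed breast cancer stem-like cells, and the non-BCSC group (3 libraries) held sorted ALDH- cells, according to the titles and the study's methods. The deposited cell type label reads breast cancer stem cells for all 6 libraries, so the groups rest on the titles. The sort read aldehyde dehydrogenase activity with a fluorescent substrate, and dead cells were gated out. No source says that the libraries of a group came from separate cultures, so the p-values measure only the spread between these libraries, which may be technical. Total RNA was copied with random primers and the strand was kept. The comparison asks which LINC RNAs differ in level between the stem-like and the other cells of a resistant line.

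LincRNAs are transcribed by RNA polymerase II, capped, usually spliced and often polyadenylated, and many are kept at low levels because transcription ends early and the nuclear exosome removes the product. Some act where they are made, on neighbouring genes, and others act elsewhere as scaffolds or decoys for proteins and microRNAs. In breast cancer, lincRNAs have been studied mostly as regulators of chromatin, drug response and the stem-like state.

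The name intergenic did not hold for every member. On GRCh37 coordinates, 26 of the 147 genes overlapped the body of a protein-coding gene, 18 on the opposite strand and 8 on the same strand. A further 23 lay within 10 kb of one, 42 at 10 to 100 kb and 56 beyond 100 kb. Exon bases were shared with another gene in 72 members, and over 20% of exon bases in 10. Because no source states whether the counting used the strand, reads from a member and an overlapping gene cannot be told apart. The gene bodies had a median of 82.7 kb, and 128 members had 2 or more annotated transcripts. The main transcript of a member, the one with the most counts, had a median length of 2909 bases and a median GC content of 41.1%, and it had a single exon in 20 members.

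Levels are given in CPM, the counts of a gene scaled to a common library size (TMM) unless stated otherwise. Total counts ran from 15925943 to 21215352 in the BCSC libraries and from 9898588 to 12263667 in the non-BCSC libraries, so that the minimum detectable level of 3 counts was 0.141 to 0.303 CPM. Markers of the line were present in every library, with VIM at 3418 CPM in BCSC and 2793 CPM in non-BCSC. Among genes expected to be absent, the hormone receptor genes were low, with ESR1 at 4.47 and 10.2 CPM and PGR at 0.753 and 13.9 CPM. PGR was called lower in BCSC (log2 fold change -4.19, edgeR adjusted p = 0.00218), also in each of the 6 fits that left out 1 library. GATA3 was at 14.5 and 9.74 CPM and CDH1 at 3.76 and 7.41 CPM, and neither was called. The transcript of ALDH1A3 was at 29.8 CPM in BCSC and 17.5 CPM in non-BCSC, which did not pass the test, and that of ALDH1A1 was at 0.230 and 2.89 CPM, called lower in BCSC (adjusted p = 0.0446), a call that was lost in each of the 6 fits that left out 1 library (adjusted p up to 0.107). Genes that these cells have no known use for were higher in the non-BCSC libraries. The 391 olfactory receptor genes, which are normally silent outside sensory neurons, summed to 36.95, 52.9 and 145 CPM of all counts in BCSC libraries 1, 2 and 3, and to 520, 680 and 1180 CPM in the non-BCSC libraries, a 10.1-fold difference of means. The 8 leukocyte, fibroblast, erythroid and endothelial markers measured summed to 1.50 to 6.35 CPM in the BCSC libraries and 27.1 to 53.1 CPM in the non-BCSC libraries. Of these, 4 (PTPRC, DCN, LUM and HBB) were called lower in BCSC, VWF was not called, CD3E, CD14 and HBA1 were too low to test, and HBB and HBA1 were at 0 in every BCSC library. PTPRC kept its call whichever library was left out, and DCN, LUM and HBB lost theirs without BCSC 1 or non-BCSC 3, among others, with adjusted p up to 0.0614, 0.141 and 0.0641. The part of these differences in the results on LINC genes was not tested, and the olfactory receptor level is set beside them as a measure of signal from silent genes. In RNA from a whole sorted sample, fewer cells that make an RNA and less of that RNA per cell cannot be told apart.

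LINC RNAs were called lower in BCSC far more often than higher. A gene was called when edgeR's quasi-likelihood test gave a Benjamini-Hochberg adjusted p under 0.05 over all 20442 genes tested and the fold change was above 2. Of the 147 members, 8 (5.44%) were called higher, against 8.85% of all genes tested, and 58 (39.5%) were called lower, against 11.3% of all genes tested. The other 81 were not called. The median log2 fold change, BCSC over non-BCSC, was -0.93 for the members and -0.05 for all genes tested. For the 914 other autosomal lncRNA genes with the same minimum count it was -0.20, with 53 higher and 182 lower. For the 11133 protein-coding genes with that minimum it was 0.25, with 1650 higher and 533 lower. All 3 BCSC values lay above all 3 non-BCSC values in 23 members, where 24.2% of all genes did so, and below them in 72 members, where 27.9% of all genes did so.

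**Figure D1:**
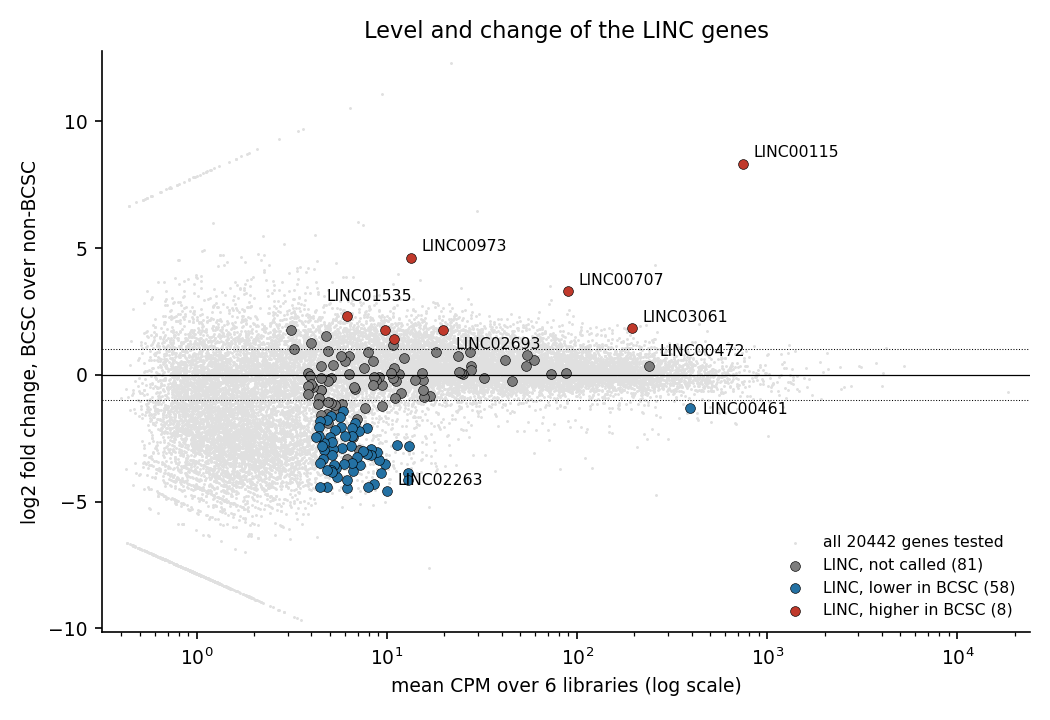
Each outlined point is 1 of the 147 LINC genes, with its mean TMM-scaled CPM over the 6 libraries on a log axis and its log2 fold change, BCSC over non-BCSC, on the other axis. The small pale grey points behind them are all genes tested. Dotted lines mark a 2-fold change, and the 58 genes called lower (blue) sit mostly at the low end of the level axis, with LINC00461 apart from them at the high end.

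The calls varied with the mean count of the gene over the 6 libraries, which a change in either group also moves. Of the 12 members whose mean reached 500 counts, 3 were called higher and 1 lower, with a median log2 fold change of 0.45. Of the 16 from 200 up to 500 counts, 2 were called, both higher, and of the 31 from 100 up to 200 counts, 3 were higher and 9 lower. Among the 88 members from 50 up to 100 counts, all 48 that were called were lower, with a median of -2.06 over the 88. The minimum count also shaped these numbers. In 75 members the mean of each group reached it, and here 6 were higher and 4 lower with a median of -0.11. In 11 members only the BCSC mean reached it, of which 2 were called higher and 9 were not called, and in 61 members only the non-BCSC mean did, of which 54 were called lower and 7 were not called. Members that enter through the group in which they are high are selected towards a difference, so the 39.5% above describes the list and supports no statement on LINC RNAs in general.

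The strongest change was that of LINC00115, a single-exon lncRNA gene on the minus strand of chromosome 1 (759608 to 762919, GRCh37), which the study itself pursued. Its level was 1716, 1618 and 1120 CPM in BCSC libraries 1, 2 and 3, and 5.94, 3.09 and 4.70 CPM in the non-BCSC libraries. The groups were separated by more than 2 orders of magnitude, with means of 1485 ± 319.5 and 4.58 ± 1.43 CPM (SD, n = 3). The log2 fold change was 8.33 (SE 0.27, adjusted p = 1.27e-06 by edgeR), and it was called in each of the 6 fits that left out 1 library. LINC00115 alone held 39.8% of all member counts in BCSC and 0.173% in non-BCSC. The summed level of the members, as CPM of all counts without TMM scaling, was thus 3704, 3642 and 3562 CPM in BCSC against 2436, 2554 and 3151 CPM in non-BCSC with LINC00115, and 2062, 2084 and 2457 against 2430, 2551 and 3146 CPM without it. The order of the group means turned when this 1 gene was left out.

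After LINC00115, the most abundant members that were called are LINC00461, LINC03061 and LINC00707. The starts of the main transcripts of LINC00115 and LINC00461 are shown because these are the most abundant members called higher and lower. Each line gives the first 200 bases of the GENCODE transcript, with CpG dinucleotides in capitals.
LINC00115-201: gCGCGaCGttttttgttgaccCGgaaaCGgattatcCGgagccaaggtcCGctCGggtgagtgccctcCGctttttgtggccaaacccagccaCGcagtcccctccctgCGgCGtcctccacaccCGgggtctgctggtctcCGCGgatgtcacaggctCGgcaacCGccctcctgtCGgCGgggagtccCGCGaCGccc
LINC00461-204: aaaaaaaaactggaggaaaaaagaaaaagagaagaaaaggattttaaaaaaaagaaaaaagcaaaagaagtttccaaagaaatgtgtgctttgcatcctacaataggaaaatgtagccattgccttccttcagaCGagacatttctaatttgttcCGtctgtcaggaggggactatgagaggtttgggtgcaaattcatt
The start of LINC00115 held 22 CpG dinucleotides in 200 bases, and that of LINC00461 held 2. LINC00115-201 is 3312 bases long in 1 exon, LINC03061-201 is 4205 bases long in 1 exon, LINC00707-201 is 3098 bases long in 5 exons, and LINC00461-204 is 3957 bases long in 3 exons.

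LINC03061, on chromosome 13 (109921982 to 109930860, plus strand), was at 284, 289 and 339 CPM in BCSC and 97.96, 79.0 and 76.0 CPM in non-BCSC. The groups did not overlap, and the log2 fold change was 1.85 (SE 0.13, adjusted p = 6.76e-05). LINC00707, on chromosome 10 (6821511 to 6884868, plus strand), which has been studied as a growth-promoting RNA in several carcinomas, was at 163, 157 and 165 CPM in BCSC. In non-BCSC it was at 8.67, 16.8 and 23.9 CPM, so the BCSC libraries lay close together and the non-BCSC libraries spread over a wider relative range. Its log2 fold change was 3.30 (SE 0.30, adjusted p = 0.000221). LINC00973, on chromosome 3 (98699902 to 98701940, plus strand), a lncRNA known to respond to chemotherapeutic drugs in cancer cell lines, had 432, 438 and 445 counts in the BCSC libraries, against 3, 9 and 22 counts in the others. That was 21.3, 28.6 and 26.9 CPM against 0.248, 0.795 and 2.11 CPM, with a log2 fold change of 4.62 (SE 0.58, adjusted p = 0.000961). LINC02693, on chromosome 17 (21331575 to 21477781, minus strand), was at 34.5, 28.4 and 28.2 CPM in BCSC and 10.2, 8.39 and 8.34 CPM in non-BCSC, with a log2 fold change of 1.76 (SE 0.23, adjusted p = 0.00120). These 5 genes were called higher in each of the 6 fits that left out 1 library.

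The remaining 3 members called higher rested on fewer counts, and each lost its call without a single library. LINC01535, in a zinc finger gene cluster on chromosome 19 (37742769 to 37756449, plus strand), was at 11.4, 10.9 and 8.47 CPM in BCSC and 2.89, 0.530 and 2.69 CPM in non-BCSC. Its difference was 2.33 on the log2 scale (SE 0.59, adjusted p = 0.0178 by edgeR). This p was 0.0602 without BCSC 1 and 0.0620 without BCSC 2. LINC01224, also beside zinc finger genes on chromosome 19 (23581899 to 23598877, minus strand), was at 15.4, 15.8 and 14.1 CPM against 6.11, 5.57 and 1.53 CPM; the log2 fold change was 1.77 (SE 0.48) at an edgeR adjusted p of 0.0214, which was 0.0637 without BCSC 1 and 0.0717 without BCSC 2. In neither gene did the groups overlap. LINC01128, on chromosome 1 (760518 to 794826, plus strand), was at 18.1, 12.3 and 16.9 CPM against 7.59, 3.45 and 6.71 CPM; the log2 fold change was 1.41 (SE 0.37) at an edgeR adjusted p of 0.0200, which was 0.0763 without BCSC 1 and 0.0526 without BCSC 3.

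LINC01128 overlaps LINC00115 on the opposite strand, so its counts were divided by transcript. Its total was 1.06%, 0.762% and 1.51% of that of LINC00115 in BCSC libraries 1, 2 and 3, and 128%, 111% and 143% of it in the non-BCSC libraries. The 2 transcripts with exon bases opposite LINC00115 exon bases had 78, 52 and 45 counts in the BCSC libraries, against 0, 7 and 8 in the others. The 10 transcripts with no such base had 290, 137 and 234 counts against 92, 32 and 62. Both sets had more counts in every BCSC library than in any non-BCSC library. These counts are not scaled, and the BCSC libraries were deeper. The difference in either set was not tested, and the split of estimated counts between transcripts of a gene is uncertain.

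**Figure D2:**
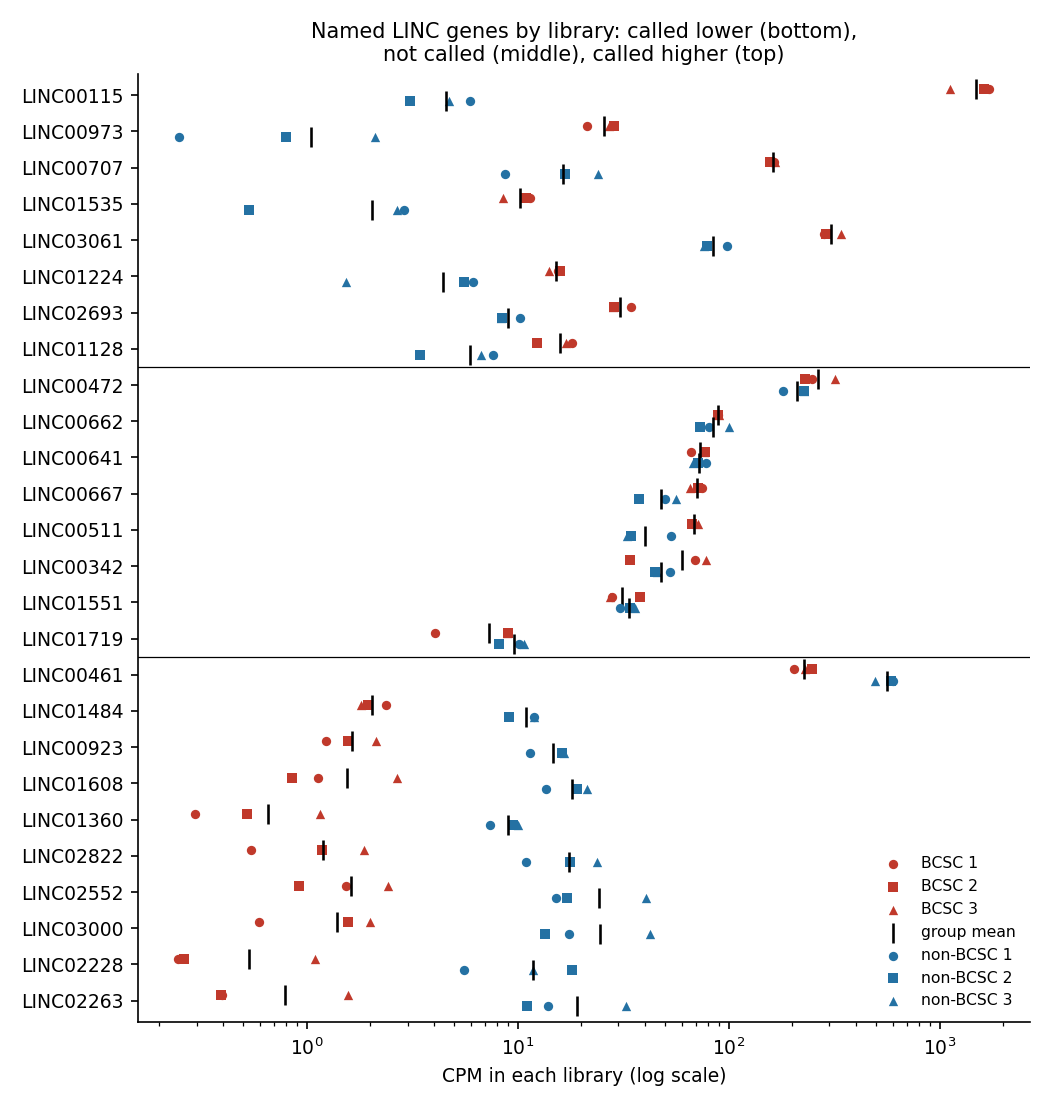
CPM (TMM-scaled, log axis) of 26 named LINC genes in each library, with the 8 genes called higher at the top, 8 genes not called in the middle and the 10 genes called lower at the bottom; red marks are BCSC, blue marks non-BCSC, symbols the library number and vertical bars the group means. Among the genes called lower other than LINC00461, every BCSC value is under 3 CPM.

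LINC01535 shares most of its main transcript with LINC00665, a member on the same chromosome that was not called, so a read can fit both. The aligned stretch was 2999 bases at 98.3% identity, which is 89.4% of LINC01535-208 and 82.1% of LINC00665-219. Inside it, 1157 bases aligned without a gap and held 9 mismatches. The window of 150 bases with the most mismatches in that stretch is shown, with its 4 mismatched bases in capitals. It gives bases by which a read could be assigned, and such bases are more widely spaced over the stretch as a whole.
LINC01535-208, bases 1614 to 1763: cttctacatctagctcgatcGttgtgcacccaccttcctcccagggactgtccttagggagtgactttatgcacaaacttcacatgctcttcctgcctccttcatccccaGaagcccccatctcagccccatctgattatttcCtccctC
LINC00665-219, bases 1903 to 2052: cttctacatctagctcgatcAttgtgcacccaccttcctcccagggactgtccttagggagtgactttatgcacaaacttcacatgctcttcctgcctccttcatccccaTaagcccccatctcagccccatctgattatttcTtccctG
LINC00665 was at 10.05, 13.5 and 12.0 CPM in BCSC and 11.8, 6.89 and 10.6 CPM in non-BCSC, with overlapping groups and a log2 fold change of 0.28 (SE 0.32, adjusted p = 0.543). The split of counts between these 2 genes is uncertain. In all, 16 members shared 200 or more bases at 98% identity or higher with a transcript from another locus, of which 2 were called higher and 5 lower. LINC01410 shared 1586 bases with an unnamed lncRNA gene, and LINC02211 shared 1036 bases, in the opposite orientation, with NORAD, a lncRNA that binds Pumilio proteins. LINC00115 shared 541 bases at 98.9% with the opposite strand of an unnamed gene and 464 bases at 99.1% with the transcript ZNF596-207.

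The only abundant member called lower was LINC00461, on chromosome 5 (87803363 to 87986874, minus strand), a lncRNA best known from the developing brain. It was at 205, 247 and 231 CPM in BCSC and 598, 585 and 495 CPM in non-BCSC. The groups lay far apart relative to their spread, 227 ± 21.4 and 559 ± 55.8 CPM (SD, n = 3), and the log2 fold change was -1.30 (SE 0.11, adjusted p = 0.000186). With a correction for GC content and length the difference was -0.65 on the log2 scale (adjusted p = 0.00857), which kept the direction and fell short of a 2-fold change.

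The other 57 members called lower were mostly sparse in BCSC. Over all 58 called lower, the median level was 1.38 CPM in BCSC and 10.4 CPM in non-BCSC. For members not called these medians were 7.29 and 9.28 CPM. The 9 named here were chosen from the members called lower because their groups did not overlap and their p was smallest. They were between 0.246 and 2.66 CPM in every BCSC library and between 5.53 and 42.5 CPM in every non-BCSC library. LINC02263 was at 0.394, 0.391 and 1.57 CPM in BCSC and 13.9, 11.04 and 32.4 CPM in non-BCSC, a log2 fold change of -4.60 (SE 0.68, adjusted p = 0.00195). LINC03000 was at 0.591, 1.57 and 1.996 CPM against 17.4, 13.5 and 42.5 CPM, a log2 fold change of -4.15. In both genes library 3 was the highest of its group. LINC02552 was at 1.53, 0.913 and 2.42 CPM against 15.2, 17.1 and 40.5 CPM (-3.89), and LINC02822 at 0.542, 1.17 and 1.88 CPM against 10.9, 17.7 and 23.8 CPM (-3.87). LINC01608 was at 1.13, 0.848 and 2.66 CPM against 13.5, 19.1 and 21.3 CPM (-3.53), and LINC00923 at 1.23, 1.57 and 2.12 CPM against 11.5, 16.3 and 16.5 CPM (-3.17). Library 3 again held the highest value of both groups in these 4 genes. LINC01360 was at 0.296, 0.522 and 1.15 CPM against 7.35, 9.45 and 10.1 CPM (-3.76), LINC02228 at 0.246, 0.261 and 1.09 CPM against 5.53, 18.1 and 11.8 CPM (-4.46), and LINC01484 at 2.36, 1.96 and 1.81 CPM against 11.9, 9.10 and 12.0 CPM (-2.42). All 9 were called in each of the 6 fits that left out 1 library, which a choice by the smallest p favours. Over all 58 members called lower this held for 25. Without BCSC 1, BCSC 2, non-BCSC 2 or non-BCSC 3, the members called lower numbered 35, 31, 39 and 30, and without BCSC 1 the members called higher numbered 5.

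Library 3 of each group, which held the most olfactory receptor counts, was also the highest of both groups in 46 of the 58 members called lower (79.3%), in 23 of the 81 not called (28.4%), in 1 of the 8 called higher (12.5%) and in 19.7% of all genes tested. Without both of these libraries, an alternative added after the values were seen, 9 members were called higher and 50 lower. The level of each member was also expressed relative to the olfactory receptor genes of the same library, as its counts per kilobase divided by the average of those genes. For members called lower the median of this ratio was 9.07 in BCSC and 7.37 in non-BCSC, and 36 of 58 lay within 2-fold of equality, 14 above it and 8 below it. For members not called the medians were 61.5 and 5.95, and for those called higher 255 and 3.50, with 78 of 81 and 8 of 8 more than 2-fold above equality. The ratio differs between the groups by a gene's own change and an offset common to all genes. The order of these sets thus largely follows from their calls. Most of the members called lower stood in the same proportion to the olfactory receptor genes in both groups, to within 2-fold. LINC00461 did not resemble them, at 1304 times the olfactory receptor level in BCSC and 279 times in non-BCSC, and so lay far above that level in both groups. LINC00115 was at 6267 times that level in BCSC and 1.54 times in non-BCSC, so its non-BCSC values were close to those of the olfactory receptor genes. When the olfactory receptor level per kilobase was subtracted from every gene, 43 of the 58 members called lower and 6 of the 8 called higher were called again, and LINC01535 (adjusted p = 0.0573) and LINC01224 (adjusted p = 0.176) were not.

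**Figure D3:**
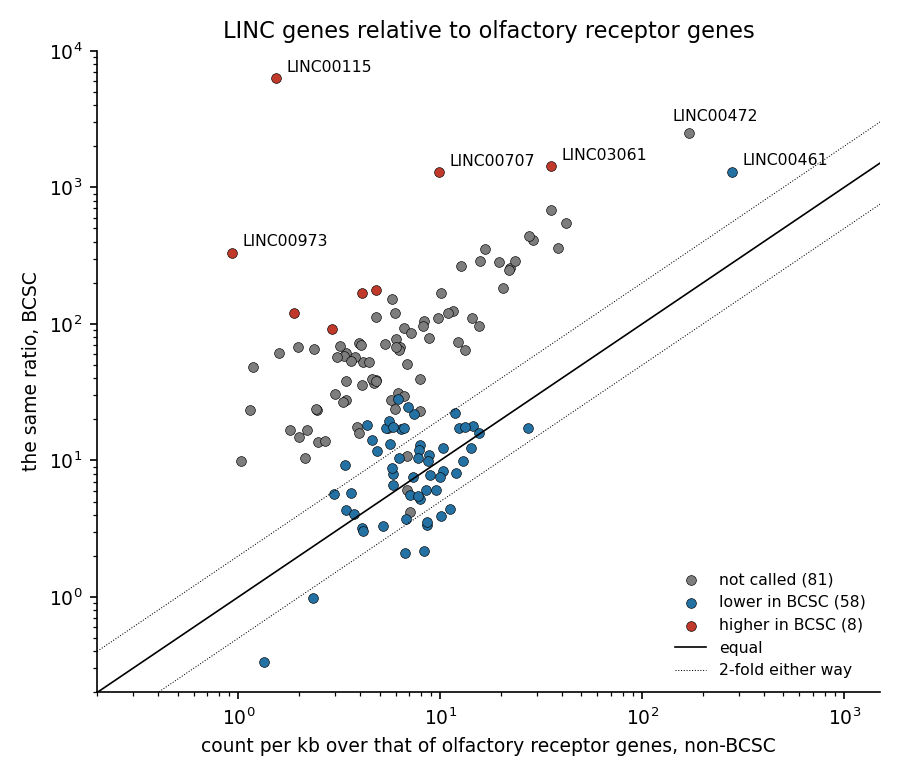
Counts per kilobase of each of the 147 LINC genes divided by the average of the 391 olfactory receptor genes of the same library, as group means, with non-BCSC on the horizontal and BCSC on the vertical log axis. The solid line marks equal ratios and the dotted lines 2-fold either way; 36 of the 58 genes called lower (blue) lie between the dotted lines.

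Added up on that same scale, the 58 members called lower held 248, 297 and 366 CPM in BCSC libraries 1, 2 and 3, and 1054, 1170 and 1522 CPM in the non-BCSC libraries. The 81 members not called held 1290, 1265 and 1501 CPM against 1245, 1267 and 1497 CPM, with nearly equal means of 1352 and 1336 CPM. The 7 members called higher other than LINC00115 held 524, 522 and 591 CPM against 132, 114 and 128 CPM. Library 3 had the highest sum of its group in the first and second of these sets.

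**Figure D4:**
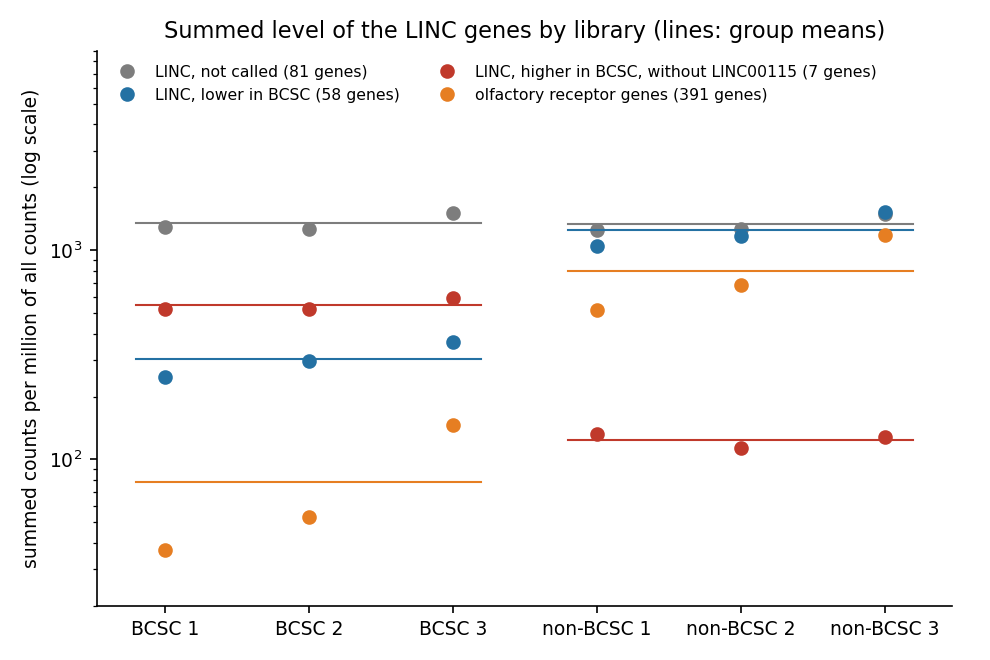
Summed CPM of all counts in each library, on a log axis, for the LINC genes called lower, not called and called higher and for the olfactory receptor genes, with lines at the group means. The olfactory receptor genes and the members called lower both sit higher in the 3 non-BCSC libraries, and the members not called lie level.

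Of the 10 most abundant members, 6 were not called. LINC00472 was at 248, 230 and 319 CPM in BCSC and 180, 227 and 226 CPM in non-BCSC, with a log2 fold change of 0.33 (SE 0.15, adjusted p = 0.110). The groups only just failed to overlap, and with the GC and length correction its log2 fold change was 1.12 (adjusted p = 0.000233) and it was called higher. The microRNA genes MIR30A and MIR30C2 lie inside LINC00472 on its strand. LINC00662 was at 89.0, 88.7 and 90.2 CPM against 80.5, 73.2 and 99.8 CPM (log2 fold change 0.08), and LINC00641 at 66.5, 77.3 and 76.2 CPM against 77.7, 71.6 and 67.5 CPM (0.02). Both pairs of groups overlapped, and the sign of both differences depended on the scaling, at -0.01 and -0.07 with relative log expression size factors. LINC00342 was at 68.8, 34.2 and 78.0 CPM against 52.7, 44.9 and 45.7 CPM (0.34, adjusted p = 0.363), with the lowest and the highest value both in BCSC. LINC00667 was at 75.0, 71.3 and 65.7 CPM against 49.6, 37.5 and 56.3 CPM (0.56, adjusted p = 0.0342). LINC00511, which has been studied in breast cancer, was at 67.5, 66.7 and 71.5 CPM against 53.1, 34.4 and 32.9 CPM (0.77, adjusted p = 0.0177). In these last 2 genes every BCSC value exceeded every non-BCSC value, yet the change stayed under 2-fold. LINC02742 (0.90) also passed the adjusted p short of 2-fold on the higher side, and LINC00467 (-0.93) on the lower side.

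At the level of single deposited transcripts fewer members could be told apart. Of 374 member transcripts tested among 46176 in all, 3 were called higher and 0 lower by edgeR, while 24 were higher and 71 lower at an unadjusted p under 0.05. Those called were LINC00115-201 (log2 fold change 8.42, adjusted p = 0.0305), LINC03061-201 (1.93, adjusted p = 0.0345) and LINC00707-201. The last had 2047, 538 and 1802 counts in the BCSC libraries, against 0, 0 and 0 in the others (adjusted p = 0.0493), while the gene as a whole had counts in every non-BCSC library. In 72 members the main transcript held 50% or more of the counts, so gene sums describe the other members better than any 1 transcript.

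The nearest protein-coding genes were compared in the same fit. The 147 members had 142 distinct neighbours, of which 120 were tested. Of these, 4 (3.33%) were called higher and 20 (16.7%) lower, where 8.85% and 11.3% of all genes tested were, with a median log2 fold change of -0.12. Among 123 tested pairs, member and neighbour were both called higher in 1 and both lower in 15, and in 1 the member was lower and the neighbour higher. Across these 123 pairs the rank correlation of the changes was 0.287, as a description over genes that share libraries, and it was 0.233 for 19 overlapping pairs, -0.449 for 22 pairs within 10 kb, 0.184 for 35 pairs at 10 to 100 kb and 0.429 for 47 pairs beyond 100 kb. The closest pairs were thus not the most alike. Of the 15 pairs called lower together, 10 were more than 100 kb apart, 4 at 10 to 100 kb and 1 overlapping.

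**Figure D5:**
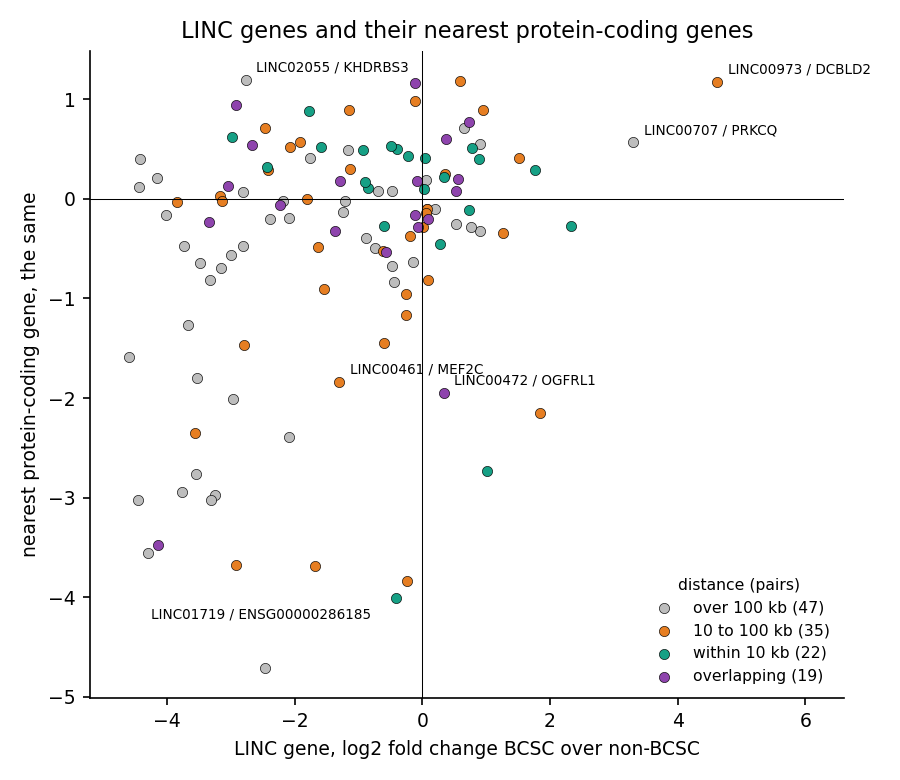
Log2 fold change, BCSC over non-BCSC, of 123 LINC genes (horizontal) and of their nearest protein-coding genes (vertical), with colours by the distance between them. Pairs beyond 100 kb reach furthest into the lower left, where both genes were lower in BCSC, and LINC00973 with DCBLD2 is the 1 pair in which both were called higher.

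The pair called higher together was LINC00973 and DCBLD2, a transmembrane receptor of the neuropilin type, whose gene lies 79.4 kb away and is transcribed in the opposite direction. DCBLD2 was at 1755, 1886 and 1761 CPM in BCSC and 815, 825 and 750 CPM in non-BCSC, with a log2 fold change of 1.18 (adjusted p = 7.68e-05). Its change was smaller than the 4.62 of LINC00973. LINC00461 and MEF2C, a transcription factor of muscle and brain 26.1 kb away, were both lower. MEF2C was at 4.34, 10.05 and 4.23 CPM against 18.7, 23.6 and 24.4 CPM, with a log2 fold change of -1.84 (adjusted p = 0.00802). The neighbours of LINC03061 (MYO16, log2 fold change -2.15, adjusted p = 0.0512), LINC00707 (PRKCQ, 0.57), LINC01535 (ZNF383, -0.27) and LINC01224 (ZNF91, 0.29) were not called, and those of LINC00115, LINC01128 and LINC02693 were too low to test.

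Among the named members called lower, 4 had a neighbour that was also called lower, namely LINC01608 with KCNV1 (-1.80), LINC02263 with TRAM1L1 (-1.59), LINC01360 with LRRIQ3 (-2.95) and LINC02228 with CDH10 (-3.03). The calls of these 4 neighbours were lost without BCSC 2, and also without other libraries, with a highest adjusted p of 0.136 for KCNV1 and TRAM1L1, 0.0645 for LRRIQ3 and 0.0639 for CDH10. Others in the same position code for adhesion and guidance proteins, such as CDH18 beside LINC02241 (-2.35), CADM2 beside LINC00971 (-3.67), CHL1 beside LINC01266 (-2.76), NCAM2 beside LINC00320 (-3.56, with an adjusted p of up to 0.0860 without 1 library) and EPHA5 beside LINC02232 (-2.97), which are mainly neuronal genes and were named after their values were seen. LINC02055 (-2.77) and KHDRBS3 (1.19), 203 kb apart, moved in opposite directions and were likewise picked out afterwards.

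Of the named members within 10 kb of a called neighbour, LINC00472, LINC01551 and LINC01719 were not called themselves. LINC00472 overlaps OGFRL1 on the opposite strand, and OGFRL1 was at 234, 300.2 and 310 CPM in BCSC and 976, 1213 and 1074 CPM in non-BCSC, a log2 fold change of -1.95 (adjusted p = 6.10e-05). The difference fell to -0.42 with the GC and length correction. LINC01551 had a log2 fold change of -0.11, which was 0.41 with the GC and length correction, and was not called. LINC01719 had a log2 fold change of -0.41, or 0.50 with that correction, while the gene ENSG00000286185, 7.67 kb away, was called lower (-4.01). LINC01202 was called lower, at 0.197, 0 and 1.75 CPM against 4.21, 8.92 and 21.7 CPM (-4.14, edgeR adjusted p = 0.0235), and its adjusted p was 0.0729 without BCSC 1, 0.0606 without non-BCSC 2 and 0.108 without non-BCSC 3.

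The machinery that ends transcription early and removes unstable noncoding RNA was examined through a list of 44 genes, of which 43 were found and tested. Of these, 4 (9.30%, against 8.85% of all genes tested) were called higher and 0 lower by edgeR, with a median log2 fold change of 0.12, and at an unadjusted p under 0.05, with no minimum fold, 13 were higher and 5 lower. DESeq2 called 5 higher and 0 lower. Of these 5, INTS1 and INTS11 were also called by edgeR, and EXOSC4, INTS5 and ZC3H3 were not. EXOSC6 and INTS3 fell short of 2-fold in DESeq2, at log2 fold changes of 0.99 and 0.97. Of the 4 called by edgeR, EXOSC6, a ring subunit of the RNA exosome, was at 89.5, 104 and 95.9 CPM in BCSC and 42.7, 48.3 and 45.2 CPM in non-BCSC (log2 fold change 1.09, adjusted p = 0.000814). The other 3 were subunits of Integrator, which cleaves nascent RNA, namely its endonuclease INTS11 (1.21), INTS1 (1.27) and INTS3 (1.06), and with the GC and length correction their changes were -0.62, -0.87 and 0.54. INTS1 was not called without BCSC 1, without non-BCSC 2 or without non-BCSC 3 (highest adjusted p = 0.0957), and INTS3 fell short of 2-fold without BCSC 1 or non-BCSC 3 while its adjusted p stayed at 0.0131 or lower. Of the genes with an adjusted p under 0.05 and less than a 2-fold change, 2 exosome subunits were higher, EXOSC2 (0.75) and EXOSC10 (0.80), and 3 genes were lower, namely XRN2 (-0.39), an exoribonuclease that ends transcription, the cap-binding subunit NCBP2 (-0.49) and the exosome nuclease DIS3 (-0.32). With the GC and length correction the first pair stayed higher at 0.54 and 0.42, and the other 3 were at 0.15, 0.10 and 0.08 with adjusted p of 0.504, 0.641 and 0.601.

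Members with a higher GC content were relatively higher in BCSC, with a rank correlation of 0.54 between the GC content of the main transcript and the log2 fold change across 147 genes. With GC content and length corrected, 52 of the 58 members called lower and 8 of the 8 called higher were called again. That correction moved the median log2 fold change of all genes tested from -0.05 to -0.20 and raised the number of members called higher from 8 to 19, with 54 lower.

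Promoters from 250 bases before to 50 bases after the start were taken from a RefSeq table on GRCh38.p14, in which 98 of the 147 members were matched. A count of 10 or more CpG dinucleotides was found in 1 of 3 matched members called higher, 10 of 39 called lower (25.6%) and 19 of 56 not called (33.9%), against 56.4% of all promoters in the table and 23.8% of its LINC genes. Of 3 motifs searched on both strands and scored as present or absent, GGGCGG (the core of an Sp1 box) was in 23.5% of members, 18.3% of the table's LINC genes and 45.0% of all promoters. TATAAA (the TATA box) was in 14.3% of members, 16.3% of LINC genes and 11.5% of all promoters, and TGANTCA (the AP-1 motif) in 17.3% of members, 13.8% of LINC genes and 7.71% of all promoters. The members were thus closer to LINC genes in general than to all promoters in each motif. A match describes the letters and is not a site. The promoters of 5 members are shown, 2 called higher, 1 abundant and not called, and 2 called lower with a small p, because they differ in CpG content. The counts ran from 0 to 43 over all matched members and from 0 to 38 over those called lower, so the 5 do not stand for their sets. CpG dinucleotides are in capitals.
LINC00472, chr6:71420696-71420995, minus strand: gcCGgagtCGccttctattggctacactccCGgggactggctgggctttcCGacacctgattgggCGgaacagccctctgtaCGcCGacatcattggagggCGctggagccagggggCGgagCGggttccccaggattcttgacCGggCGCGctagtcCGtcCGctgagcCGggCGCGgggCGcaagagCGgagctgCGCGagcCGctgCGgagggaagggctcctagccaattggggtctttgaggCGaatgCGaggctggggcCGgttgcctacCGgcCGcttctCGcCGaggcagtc
LINC01535, chr19:37251635-37251934, plus strand: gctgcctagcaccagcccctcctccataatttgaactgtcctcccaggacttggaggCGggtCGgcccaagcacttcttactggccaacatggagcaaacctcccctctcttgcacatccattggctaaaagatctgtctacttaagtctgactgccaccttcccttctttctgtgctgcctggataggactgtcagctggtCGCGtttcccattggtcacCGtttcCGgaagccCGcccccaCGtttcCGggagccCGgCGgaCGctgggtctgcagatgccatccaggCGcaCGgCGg
LINC00973, chr3:98914316-98914615, plus strand: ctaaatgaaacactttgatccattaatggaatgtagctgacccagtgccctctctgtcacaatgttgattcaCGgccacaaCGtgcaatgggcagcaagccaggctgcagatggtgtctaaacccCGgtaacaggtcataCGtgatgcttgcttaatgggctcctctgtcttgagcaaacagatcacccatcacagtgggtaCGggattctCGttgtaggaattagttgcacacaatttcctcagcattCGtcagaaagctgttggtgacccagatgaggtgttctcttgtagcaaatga
LINC02822, chr12:90593317-90593616, plus strand: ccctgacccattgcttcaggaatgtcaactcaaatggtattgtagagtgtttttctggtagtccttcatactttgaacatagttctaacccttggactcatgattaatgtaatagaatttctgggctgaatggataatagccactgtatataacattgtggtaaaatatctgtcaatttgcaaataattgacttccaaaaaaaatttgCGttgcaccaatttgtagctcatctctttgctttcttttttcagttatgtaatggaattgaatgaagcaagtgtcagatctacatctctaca
LINC02552, chr11:104609253-104609552, minus strand: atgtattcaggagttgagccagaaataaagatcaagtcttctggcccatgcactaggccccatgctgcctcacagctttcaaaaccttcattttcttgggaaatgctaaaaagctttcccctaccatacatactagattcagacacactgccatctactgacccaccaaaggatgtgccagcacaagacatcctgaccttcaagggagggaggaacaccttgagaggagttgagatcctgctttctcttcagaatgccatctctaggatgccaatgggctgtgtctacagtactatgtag
They held 31, 15, 7, 1 and 0 CpG dinucleotides in this order. GGGCGG was found in the first and second and TGANTCA in that of LINC00973.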

How the data were processed

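The 6 libraries were sequenced from total RNA, and the authors deposited 1 table of estimated counts per Ensembl transcript, not normalized. The study's methods name HISAT2 with hg19, and the submitters' processing notes list hg38, HISAT2, featureCounts and DESeq2. The table has no coordinates, and whether counting used the strand is not given in the sources used here. Of 252618 transcripts, 249787 (98.9%) were matched by identifier to GENCODE, with gene positions on GRCh37, and hold 99.7% of the counts. The values are whole numbers and were summed per gene. Groups came from the titles. The members and gene lists were chosen with earlier results of these data known.

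All genes were fitted in edgeR 4.0.16 (R 4.3.3) with TMM factors, its filter on low counts, robust quasi-likelihood dispersion and no covariate, and Benjamini-Hochberg adjustment over 20442 genes. The call required an adjusted p under 0.05 and a fold above 2. CPM are TMM-scaled unless stated otherwise. The common biological coefficient of variation was 0.453. The fit was tested on simulated counts. Alternatives were DESeq2 1.42.0, relative log expression factors, other filters and thresholds, thinning to 9872974 counts, a GC and length correction (loess, span 0.3), a replicate block, removal of the olfactory receptor level and leaving out each library. Shared sequence was found with BLAST+ 2.17.0 (megablast, 98% identity, 200 bases), and tables were made with pandas 2.3.3. A neighbour is the protein-coding gene with the smallest gap to the gene body.

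Named genes were LINC00115, the 10 members with the highest mean CPM, up to 10 called higher and 10 called lower without overlap and with the smallest p, their neighbours, members within 10 kb of a called neighbour, and called genes of the decay list. Floors and SDs cover these libraries only. Replicate libraries differed beyond counting noise. Some neighbour values and sequences are not reported here.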

Additional observations from a re-analysis of the deposited data

How the results depend on the processing

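Of the 147 members, 8 were called higher and 58 lower. Relative log expression factors, DESeq2, no filter, 10 counts in every library, thinning, unadjusted p with the fold, adjusted p without it, removal of the olfactory receptor level and members free of overlaps moved neither count by over 1.5 times. Members called higher numbered 19 with the GC and length correction and 18 when the replicate block was added to it. Members called lower numbered 10 with a minimum mean of 100 counts and 88 with a minimum of 3 CPM, and single transcripts gave 3 higher and 0 lower. Leaving out 1 library gave 5 to 11 higher and 30 to 58 lower.

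Neighbours, 4 higher and 20 lower, numbered 17 higher with the GC and length correction with or without the block, 2 higher and 13 lower with the olfactory receptor level removed, 15 higher without a minimum fold, 8 higher when chosen by start sites, and 3 to 5 higher and 11 to 23 lower without 1 library. The decay genes, 4 higher and 0 lower, numbered 2 higher with relative log expression factors, 7 with the GC and length correction, 9 with the block added, 7 at unadjusted p, 2 to 6 without 1 library, and 3 lower without a minimum fold.

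LINC00662 turned to -0.0136 with relative log expression factors, -0.0134 with DESeq2, -0.0738 with 10 counts in every library and -0.14 with the olfactory receptor level removed. LINC00641 turned to -0.0699, -0.0703, -0.13 and -0.15 under the same settings, and to -0.0387 with thinning and -0.11 without the libraries numbered 3, and it lay between -0.0158 (without BCSC 3) and 0.1301 (without non-BCSC 1) when 1 library was left out. LINC01551 turned to 0.41 and LINC01719 to 0.50 with the GC and length correction, and to 0.39 and 0.48 with the block added. Of 426 values of single named members, 391 kept direction and side of the threshold, 15 fell below it, 4 rose above it and 16 turned. The causes were not tested.

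The replicate block gave 11 members higher and 64 lower. The replicate numbers were not taken as pairing, since same-numbered libraries deviated together with correlations of 0.222, 0.030 and 0.248, and BCSC 2 correlated best with non-BCSC 1 (0.043). A level of 3 counts was worth 0.141 to 0.303 CPM, and thinning every library to the smallest gave 8 higher and 64 lower.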

Other observations

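LINC genes left out by the criteria were measured in the same fit. Of those below the minimum of 50 counts, 532 could be tested, and 2 (0.376%) were called higher and 167 (31.4%) lower, where 8.85% and 11.3% of all genes tested were, with a median log2 fold change of -2.71. The filter on low counts lets a sparse gene in through the group in which it is high. These shares therefore describe the genes tested and support no statement on LINC RNAs in general. The 2 called higher were LINC01686, at 49, 12 and 19 counts in the BCSC libraries against 0, 0 and 0 in the others, and LINC02604, at 67, 57 and 90 counts against 6, 0 and 0. Neither was called without any 1 of the BCSC libraries or without non-BCSC 2, with adjusted p up to 0.0587 and 0.0651.

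The 4 LINC genes on the X chromosome that reached the minimum were not called. LINC00632 was at 293, 314 and 283 CPM in BCSC and 279, 253 and 223 CPM in non-BCSC, with a log2 fold change of 0.24 (edgeR adjusted p = 0.123). LINC00630 had a log2 fold change of 0.14, LINC01278 of 0.67 and LINC02595 of 1.20, and the groups of LINC00630 and LINC02595 overlapped.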
